A study of Mus musculus with 4 samples.

Results

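The proprotein convertases are calcium-dependent, subtilisin-like serine proteases that cut precursor proteins inside the secretory pathway and at the cell surface. Furin, which cycles between the trans-Golgi network, the plasma membrane and endosomes, is found in most tissues and processes growth factors, receptors and metalloproteases after clusters of basic residues, the TGF-beta precursor among them. Its relatives Pcsk5, Pcsk6 and Pcsk7 accept overlapping precursors, which is the background to the question whether any of them was higher in the furin knockout. The members were the 8 genes Furin, Pcsk1, Pcsk2, Pcsk4, Pcsk5, Pcsk6, Pcsk7 and Mbtps1, and every probe set that the array's annotation assigned to 1 of these symbols alone was taken, dim ones included. This gave 13 of 45037 non-control probe sets, for 7 of 18193 named genes. Pcsk2, the convertase of neuroendocrine granules, had no such probe set and was not analysed here.

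The samples were naive helper T cells, sorted fresh as CD4 positive, CD62L positive and CD44 negative, from mice aged 10 to 11 weeks. The group labelled knockout came from CD4-cre Fur flox/flox mice, in which a CD4-driven Cre recombinase acts in the T lineage, and the group labelled wild type from Fur flox/flox littermates. Both groups thus carry the floxed furin gene, the wild-type mice carry no Cre, and effects of Cre itself cannot be told apart from those of the deletion. Each group had 2 Affymetrix Mouse 430 2.0 arrays numbered 1 and 2, and no label ties an array to an animal. The limma p-values and intervals thus reflect the spread among 4 arrays, which may be technical. They also use a variance that limma borrows from all probe sets. Values are MAS5 signals, with 1 value per probe set on a linear scale. Tests used log2(signal + 15.3), and each difference is knockout minus wild type on that scale.

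Sorted cells read as T cells on all 4 arrays. All 9 measured T cell markers and all 7 measured markers of the naive state had a mean signal above 65.4, the median over all probe sets, and Cd4 had signals of 3032 and 3348 on the knockout arrays and 3432 and 2974 on the wild-type arrays. The arrays separated by their number. The bacterial controls BioB, BioC and BioDn, which are added to the sample and do not come from the cells, differed between numbers 2 and 1 by 6.32-fold in knockout and by 6.30-fold in wild type, number 2 being the brighter. For Gapdh, a control of RNA integrity, the 3' signal divided by the 5' signal came to 3.35 and 0.934 on knockout arrays 1 and 2, against 4.09 and 0.905 on wild-type arrays 1 and 2. Differences are therefore given also within the arrays numbered 1 (pair 1) and within those numbered 2 (pair 2), and with the number as a block in the model. Of the markers of cells outside the sort, those of myeloid, B, and CD8 T and natural killer (NK) cells had higher sums in knockout within both pairs. The difference was above 0 in both pairs for 7 of 9 myeloid and 5 of 7 B cell markers. Of 8 CD8 T and NK markers, 4 were higher and 2 lower in both pairs, with sums of 4328 and 3864 in knockout and 3793 and 3550 in wild type. Summed over 9 myeloid markers the signals were 838 and 10075 in knockout and 399 and 1343 in wild type, and over 7 B cell markers 1024 and 8804 in knockout and 718 and 2609 in wild type. The sum of 6 endothelial markers, 660 and 2149 in knockout and 692 and 2192 in wild type, was not higher. In bulk samples such as these, fewer cells of a type and less RNA per cell cannot be told apart.

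Mouse promoter windows, taken from RefSeq on build GRCm38.p6, were found for 7 of the 8 members (Pcsk4 is missing from the table). Each window printed here holds the 250 bases before an annotated start. Shown are the windows of Furin and Pcsk7, which read brightly in these cells, and of Pcsk1, a neuroendocrine relative, as examples. Furin has 2 annotated starts. In the first 3 sequences the capitals mark CG pairs, and in that of Pcsk1 they mark the cyclic AMP response element.
Furin, downstream start, chr7:80402813-80403062, minus strand: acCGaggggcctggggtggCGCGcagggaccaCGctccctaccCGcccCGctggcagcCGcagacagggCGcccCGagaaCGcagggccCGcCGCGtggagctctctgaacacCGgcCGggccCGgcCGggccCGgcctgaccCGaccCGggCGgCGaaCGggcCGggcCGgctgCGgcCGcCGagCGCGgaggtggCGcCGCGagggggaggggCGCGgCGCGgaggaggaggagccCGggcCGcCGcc
Furin, upstream start, chr7:80405437-80405686, minus strand: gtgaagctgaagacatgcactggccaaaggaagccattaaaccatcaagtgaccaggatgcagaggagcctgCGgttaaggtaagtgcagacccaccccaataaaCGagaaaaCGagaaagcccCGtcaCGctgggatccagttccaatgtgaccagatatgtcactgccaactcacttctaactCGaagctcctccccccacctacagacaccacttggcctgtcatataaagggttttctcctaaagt
Pcsk7, chr9:45906319-45906568, plus strand: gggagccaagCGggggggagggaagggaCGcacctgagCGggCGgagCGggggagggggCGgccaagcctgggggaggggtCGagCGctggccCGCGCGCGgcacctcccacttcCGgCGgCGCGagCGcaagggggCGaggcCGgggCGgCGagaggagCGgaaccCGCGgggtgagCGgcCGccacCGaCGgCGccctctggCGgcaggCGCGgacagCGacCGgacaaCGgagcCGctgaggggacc
Pcsk1, chr13:75089607-75089856, plus strand: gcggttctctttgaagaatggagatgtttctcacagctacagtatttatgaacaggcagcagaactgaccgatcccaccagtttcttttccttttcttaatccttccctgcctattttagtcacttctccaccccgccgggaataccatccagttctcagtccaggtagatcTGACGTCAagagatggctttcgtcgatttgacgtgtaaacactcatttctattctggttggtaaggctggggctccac
The downstream Furin window held 40 CG pairs, more than 98.7% of 32851 mouse windows of the same length, and the upstream window held 6, which is also the median over all windows. Pcsk7 held 36 CG pairs and Mbtps1 25. CG content did not set the bright members apart from the dim ones, since the window of Pcsk6, a dim member, held 40. That of Pcsk2, whose signal was not measured, held 35. Pcsk5 held 15 and Pcsk1 8. The letters TATAAA stood 23 bases before the upstream Furin start and occur in 12.4% of all windows. The cyclic AMP response element TGACGTCA stood 78 bases before the Pcsk1 start and in 1.55% of all windows. No member's window held the AP-1 letters TGANTCA or the STAT letters TTCNNNGAA, which occur in 6.75% and 7.02% of windows. Both strands were searched, the motifs found did not overlap, and a match in these letters is a description of the sequence only.

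Whether a convertase was read at all in naive T cells was judged against genes of other tissues, since the table holds no detection calls. The 35 probe sets of the neuroendocrine, male germ cell and liver markers had mean signals between 2.23 and 186, with a median of 16.1 and a 90th percentile of 70.1. Brightness depends on the probes as well as on the transcript, so the signals of different probe sets do not rank the genes. Each array was judged against its own 90th percentile of these markers. This was 55.7 and 77.4 on knockout arrays 1 and 2, and 52.5 and 102 on wild-type arrays 1 and 2. The probe sets of Furin, Pcsk7, Mbtps1 and Pcsk4 lay above it on 4 of 4 arrays. Those of Furin, Pcsk7 and the brightest pair of Mbtps1 lay above all 35 in mean signal. The Pcsk4 probe set and 1431386_s_at of Mbtps1 lay within the range of the markers, each with 1 of the 35 brighter in mean. The probe sets of Pcsk1, Pcsk5 and Pcsk6 also lay within it and had means below the 90th percentile. The 5 Pcsk5 probe sets stayed below the 90th percentile on every array. In all, 6 of the 13 probe sets, belonging to 4 genes, had a mean above 65.4.

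**Figure D1:**
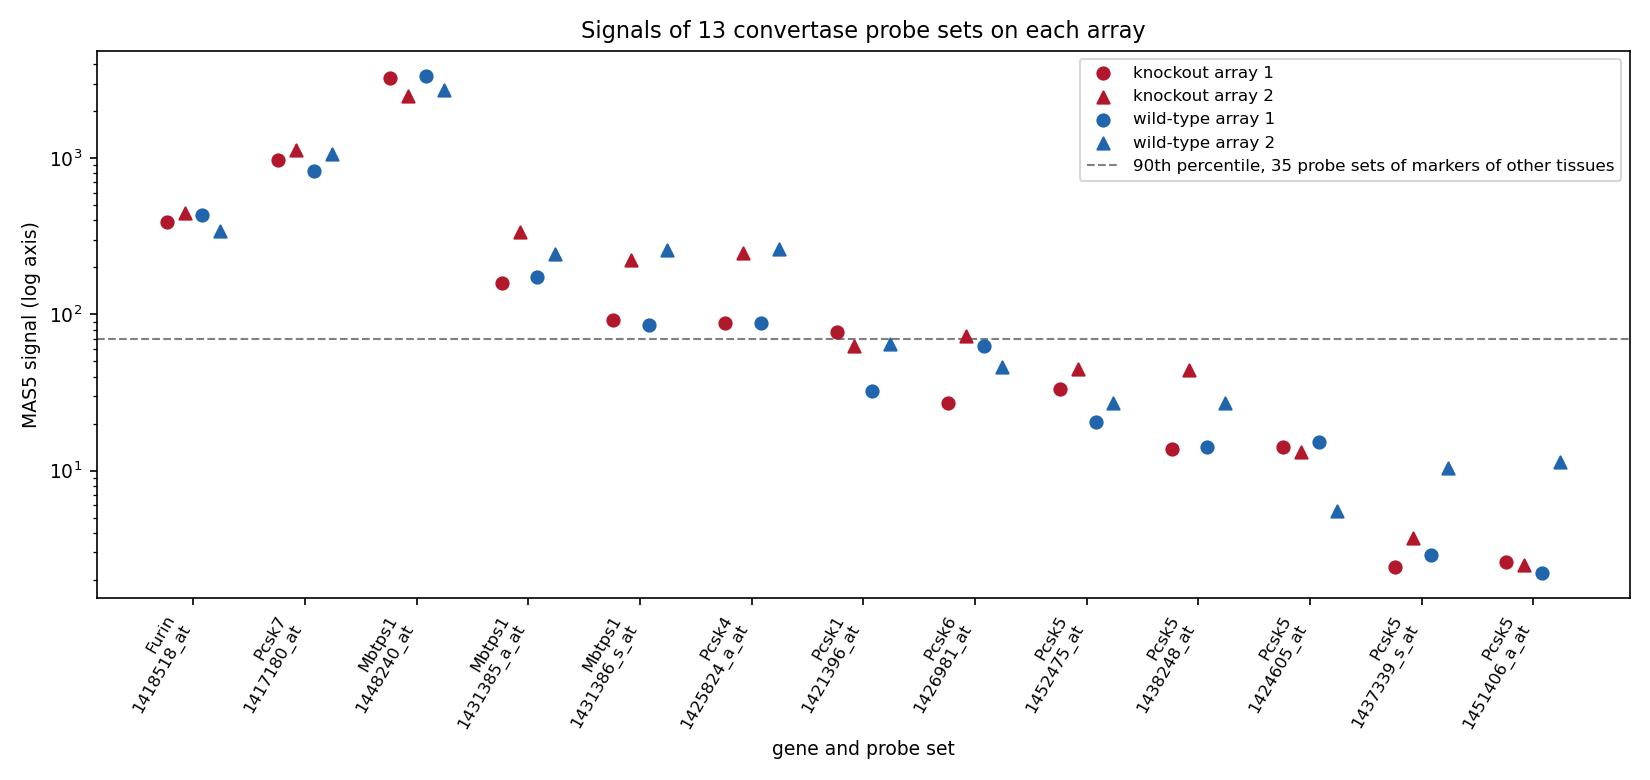
MAS5 signal (log axis) of the 13 convertase probe sets, with knockout arrays in red to the left and wild-type arrays in blue, circles for arrays numbered 1 and triangles for arrays numbered 2. The dashed line at 70.1 is the 90th percentile of the mean signals of 35 probe sets of markers of other tissues, and the Pcsk1, Pcsk5 and Pcsk6 points lie near or below it.

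Furin, the targeted gene, was read by a single probe set, 1418518_at. Its signal was 391 and 447 on knockout arrays 1 and 2 and 435 and 344 on wild-type arrays 1 and 2. The groups overlapped, with 1 knockout array the brightest of all and the other between the wild-type arrays. The mean was 419 ± 39.2 in knockout and 390 ± 64.5 in wild type (SD, n = 2 each). The difference was 0.11 (SE 0.36, 95% interval -0.83 to 1.04, limma adjusted p = 1), and it was -0.15 in pair 1 and 0.36 in pair 2. An exact permutation test of this value gave a two-sided p = 0.667, and 2 arrays against 2 can give no p below 0.333. Expressed as a fold, the interval ran from 0.564 to 2.06, and with the array number as a block from 0.635 to 1.83. Without wild-type array 2 the direction turned, to -0.05. Which exons Cre removes is not stated in the labels, and the position of this probe set in the gene was not analysed here. A probe set outside the removed exons would read the shortened transcript as well, whereas one inside them would be expected to fall, so whether the signal checks the deletion and the group labels is not known.

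Pcsk7, the membrane-bound convertase that is found in most tissues and shares the trans-Golgi location of furin, was read by the probe set 1417180_at. Its signal was 972 and 1123 on the knockout arrays and 824 and 1068 on the wild-type arrays. Each knockout array was above the wild-type array of its number, but the ranges overlapped. The difference was 0.15 (SE 0.37, 95% interval -0.79 to 1.10, limma adjusted p = 1), with 0.23 in pair 1 and 0.07 in pair 2. In folds the interval ran from 0.577 to 2.14, and with the block from 0.695 to 1.78. Without wild-type array 1 the difference was -0.03. A rise of Pcsk7 was not detected, but these intervals include rises up to 2.14-fold, or 1.78-fold with the block.

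Mbtps1 encodes the site-1 protease, which differs from the other members in cutting after non-basic residues and releases the membrane-bound transcription factors of the SREBP and ATF6 families. Its probe set 1448240_at, the brightest of 3, had signals of 3247 and 2505 on the knockout arrays and 3383 and 2736 on the wild-type arrays. Both arrays numbered 1 were above both arrays numbered 2, in knockout and wild type alike. The difference between the groups was -0.09 (SE 0.38, 95% interval -1.06 to 0.87, limma adjusted p = 1), with -0.06 and -0.13 in the pairs. With the block its interval in folds was 0.590 to 1.49. The second probe set, 1431385_a_at, had 159 and 338 in knockout and 174 and 245 in wild type. The third, 1431386_s_at, had 92.6 and 222 in knockout and 85.4 and 259 in wild type. These dimmer probe sets differed by 0.16 and -0.05 between the groups, and both were brighter on arrays numbered 2, so the probe sets of this gene disagreed in how they followed the array number. The mean of all 3 gave 0.0042, which turns the sign of the brightest.

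Pcsk4, a convertase known mainly from male germ cells, where it acts in sperm, depended strongly on array number. Its probe set 1425824_a_at had 88.3 and 248 on the knockout arrays and 88.4 and 264 on the wild-type arrays. Signals on arrays numbered 2 were 2.81-fold higher in knockout and 2.99-fold higher in wild type. On the log2 scale of the tests its mean rise, 1.39, was the largest among the convertase probe sets. That of 1431386_s_at of Mbtps1 was close, at 1.29. As folds of the signal, some other probe sets rose more, such as 1438248_at of Pcsk5 at 3.20 in knockout. In wild type, 1431386_s_at of Mbtps1 rose 3.03-fold and 1451406_a_at of Pcsk5 5.18-fold. Between the groups Pcsk4 differed by -0.04 (SE 0.71, 95% interval -1.85 to 1.76, limma adjusted p = 1), and by -0.001 and -0.09 in the pairs. With the block the interval narrowed to -0.71 to 0.63. The 8 measured germ cell markers had summed signals of 190 and 242 in knockout and 247 and 205 in wild type, and 1 of them, the protamine gene Prm1, had a mean above 65.4. They did not follow the array number together. Prm1 was at 28.9 and 93.2 in knockout and 55.6 and 98.7 in wild type, brighter on arrays numbered 2 as Pcsk4 was, while Tnp1, a transition protein gene of developing sperm, was at 12.3 and 2.1 in knockout and 10.9 and 1.2 in wild type. What the Pcsk4 probe set hybridised with was not tested.

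The dim members came next. Pcsk1 processes prohormones in the dense granules of endocrine and neural cells and is also known from macrophages. Its probe set 1421396_at had 76.9 and 62.5 on the knockout arrays and 32.2 and 64.4 on the wild-type arrays, and wild-type array 1 alone stood low. The difference of 0.46 (SE 0.42, limma adjusted p = 1) was 0.96 in pair 1 and -0.03 in pair 2, so it came from the arrays numbered 1. Without wild-type array 1 it was 0.09. Pcsk6, a secreted convertase that binds the cell matrix, had 27.2 and 72.6 in knockout and 63.1 and 46.3 in wild type at 1426981_at. The highest and the lowest of these signals were both knockout arrays, and the pairs pointed in opposite directions, at -0.88 and 0.51.

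Pcsk5, a second secreted convertase, was covered by 5 probe sets, none above 65.4. The brightest, 1452475_at, was the only one of the 13 convertase probe sets whose groups did not overlap, with 33.1 and 44.9 in knockout and 20.4 and 26.9 in wild type. It differed by 0.48 (SE 0.37, 95% interval -0.46 to 1.42, limma adjusted p = 1), and by 0.44 and 0.51 in the pairs. Its unadjusted limma p was 0.251 without the block, 0.118 with it, and 0.367 with a trended prior added to the block. With a pseudocount of 1 the difference was 0.70, and with one of 66.6 it was 0.23. Its signals lie within those of the markers of other tissues, of which 10 of 35 probe sets were brighter in mean. The 4 further Pcsk5 probe sets overlapped between the groups and differed by -0.28 to 0.24. At 1438248_at the signals were 13.8 and 44.1 in knockout and 14.1 and 27 in wild type, and at 1424605_at they were 14.2 and 13.1 in knockout and 15.3 and 5.5 in wild type. The pair 1437339_s_at and 1451406_a_at stayed at or below 3.7 in knockout and 11.4 in wild type. The mean of all 5 probe sets differed by 0.08. The marker sums of myeloid, B, and CD8 T and NK cells, given above, were also higher in knockout within both pairs. The part of these cells in the reading of 1452475_at was not tested.

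Across the 13 probe sets, 0 passed limma at an adjusted p of 0.05, against 0% of all 45037 in either direction, and 0 also passed with the array number as a block, again against 0%. At an unadjusted p under 0.05 the fit without a block held 0 of the 13 and 1.67% of all probe sets, and the fit with the block 0 of the 13 and 5.11% of all. Adding a trended prior to the blocked fit gave 0 calls among the 13, against 0.182% of all probe sets called higher and 0.0311% called lower, and 0 of the 13 at an unadjusted p under 0.05, against 7.31%. Both knockout arrays lay above both wild-type arrays in 1 convertase probe set, against 10.9% of all, and below in 0, against 10.9%. The difference was above 0 in both pairs for 2 probe sets, those of Pcsk7 and the brightest of Pcsk5, against 25.7% of all. It was below 0 in both pairs for 3, against 26.8%. The other 8 had opposite signs in the pairs. These shares are near those of all probe sets. The median difference was 0.11 over the 13, with -0.01 and 0.07 in the pairs, and -0.01 over all probe sets, with 0.02 and -0.03. None of the 7 measured convertases was found to be higher in the knockout group. With 2 arrays a group, the fits without and with the block called no probe set at all, not even that of the myeloid marker Ngp, with a difference of 2.53. The lack of calls therefore sets no limit on the size of a rise.

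**Figure D2:**
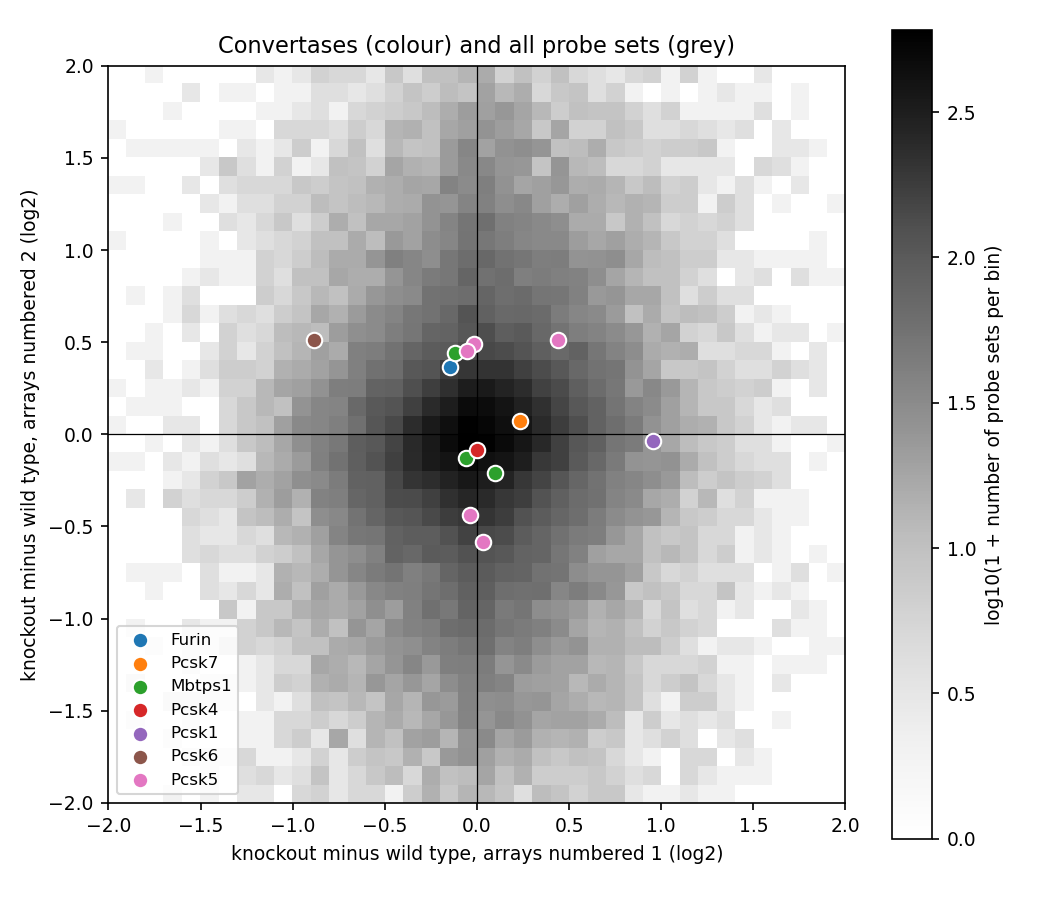
Knockout minus wild type within arrays numbered 1 (horizontal, log2) against the same within arrays numbered 2 (vertical, log2) for the 13 convertase probe sets in colour, over the number of all probe sets per bin in grey; differences beyond 2 are outside the axes. Pcsk1 stands apart in pair 1 alone (0.96), Pcsk6 has opposite signs (-0.88 and 0.51), and the brightest Pcsk5 probe set is higher in both (0.44 and 0.51).

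**Figure D3:**
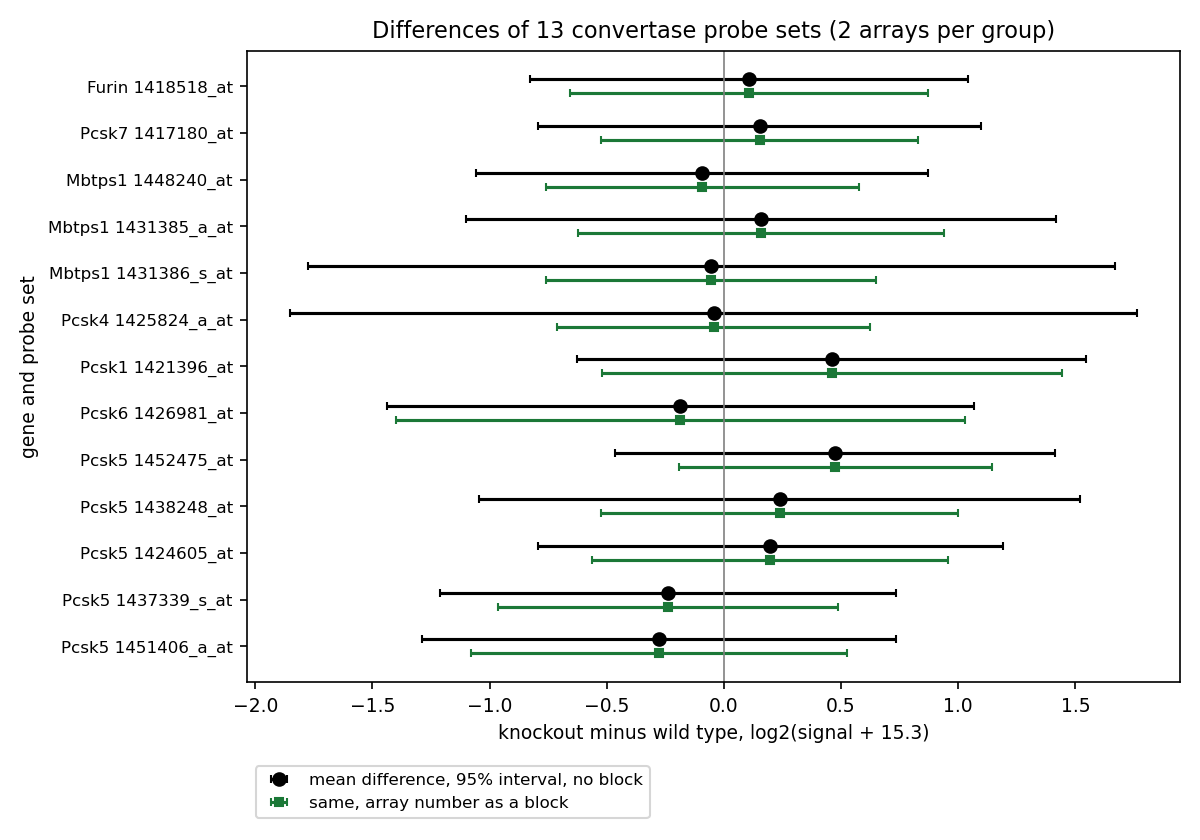
Knockout minus wild type on the log2(signal + 15.3) scale for each convertase probe set, as the mean difference with its 95% interval from limma without a block (black circles) and with the array number as a block (green squares). Every interval includes 0, from Furin at 0.11 to the brightest Pcsk5 probe set at 0.48.

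The pattern of a member over the 4 arrays was set beside those of 10225 other genes above the median signal, each centred on its own mean. The nearest to Furin were 2310022B05Rik at a distance of 0.017 on the log2 scale, Wrap53 at 0.026 and Mcm6 at 0.027, and 24 genes lay within 0.1. Nearest to Pcsk7 were Mitd1 at 0.012, Psmd12 at 0.013 and Cox5a at 0.023, with 63 genes within 0.1. Likeness over 4 arrays is a description of nearly flat patterns and carries no test.

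Genes that act with the convertases were described by 5 lists, and 0 of their measured genes passed limma at an adjusted p of 0.05 without or with the block, against 0% of all 18193 genes. Among partners that hold convertases in check or fold them, 4 of the 7 symbols listed were measured. Of these genes, 1 was higher and 2 were lower in both pairs, against 27.3% and 24.9% of all genes. Scg5 encodes 7B2, the chaperone of Pcsk2, and had 120 and 356 in knockout and 172 and 418 in wild type (difference -0.35, SE 0.69). Serpinb6a, an intracellular serpin, was lower on both knockout arrays, with 776 and 809 in knockout and 1095 and 1021 in wild type (difference -0.41, SE 0.35). Serpinb8, whose human form is known to inhibit furin, was chosen after its values were seen because it differed most in this list. Its difference was 1.07 (SE 0.52), with 0.20 in pair 1 and 1.95 in pair 2. Its signals, 32.1 and 63.1 in knockout and 26.1 and 5 in wild type, are as dim as those of the markers of other tissues.

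Carboxypeptidases and the amidating enzyme that finish the ends left by the convertases were all measured, 6 of 6, with a median difference of 0.08 against 0.002 over all genes. Cpd, the carboxypeptidase D of the trans-Golgi network, had 64.4 and 48.9 in knockout and 88.4 and 126 in wild type at its brightest probe set. That difference of -0.76 (SE 0.39, pairs -0.38 and -1.14) became 0.05 when all its probe sets were averaged. Pam, the amidating enzyme, had 79.7 and 193 in knockout and 56.4 and 134 in wild type, a difference of 0.44 (SE 0.60). The groups of Pam overlapped because arrays numbered 2 were brighter in both.

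Sorting of furin between the Golgi, endosomes and surface uses the PACS adaptors, the AP-1 adaptor complex and filamin. All 12 genes of this list were above the median signal, and the median of their differences was -0.04, or 0.01 in pair 1 and -0.02 in pair 2. Flna, which encodes filamin A, had 4703 and 6327 in knockout and 5849 and 7275 in wild type, with a difference of -0.26 (SE 0.38). Ap1g1, a subunit of the adaptor complex, differed by -0.29 (SE 0.50, pairs -0.56 and -0.01), and Ap1b1, another subunit, by 0.17 (SE 0.36, pairs 0.20 and 0.15). In this list 3 genes were higher and 5 lower in both pairs, against 27.3% and 24.9% of all genes.

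In the pathway of the site-1 protease 25 of 27 genes were measured. In both pairs 2 were higher and 8 were lower, against 27.3% and 24.9% of all genes, and the median difference was -0.02, or -0.07 in pair 1 and -0.11 in pair 2. Srebf2, which encodes a sterol-regulated transcription factor freed by this protease, had 588 and 947 in knockout and 937 and 1450 in wild type. Each knockout array was below the wild-type array of its number while the groups overlapped, and the difference was -0.63 (SE 0.45, pairs -0.66 and -0.61, limma adjusted p = 1). Idi1, an enzyme of sterol synthesis that this factor induces, had 1372 and 725 in knockout and 1831 and 1306 in wild type (difference -0.62, SE 0.47, pairs -0.41 and -0.84). Mbtps2, the site-2 protease that makes the cut after Mbtps1, had 1772 and 720 in knockout and 2328 and 968 in wild type. Its difference was -0.41 (SE 0.66, pairs -0.39 and -0.42), and without knockout array 2 it was 0.24. Both knockout arrays lay above both wild-type arrays in 2 genes of this list, against 11% of all genes, and below in 1, against 9.48%.

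Other proteases of the secretory pathway and cell surface were all measured. In both pairs 4 of the 18 genes were higher and 5 were lower, against 27.3% and 24.9% of all genes, and the median difference was 0.01. Adam19, a metalloprotease that furin itself activates, had 178 and 228 in knockout and 324 and 377 in wild type. The groups did not overlap, and the difference was -0.75 (SE 0.37, pairs -0.81 and -0.69, limma adjusted p = 1, or 0.859 with the block). Ece1, the endothelin-converting enzyme, differed by 0.51 (SE 0.55), but by 0.97 in pair 1 and 0.05 in pair 2, and by -0.14 without wild-type array 1. Adam9 had 293 and 140 in knockout and 317 and 189 in wild type, a difference of -0.25 (SE 0.51). Without knockout array 2 its sign turned, to 0.24.

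**Figure D4:**
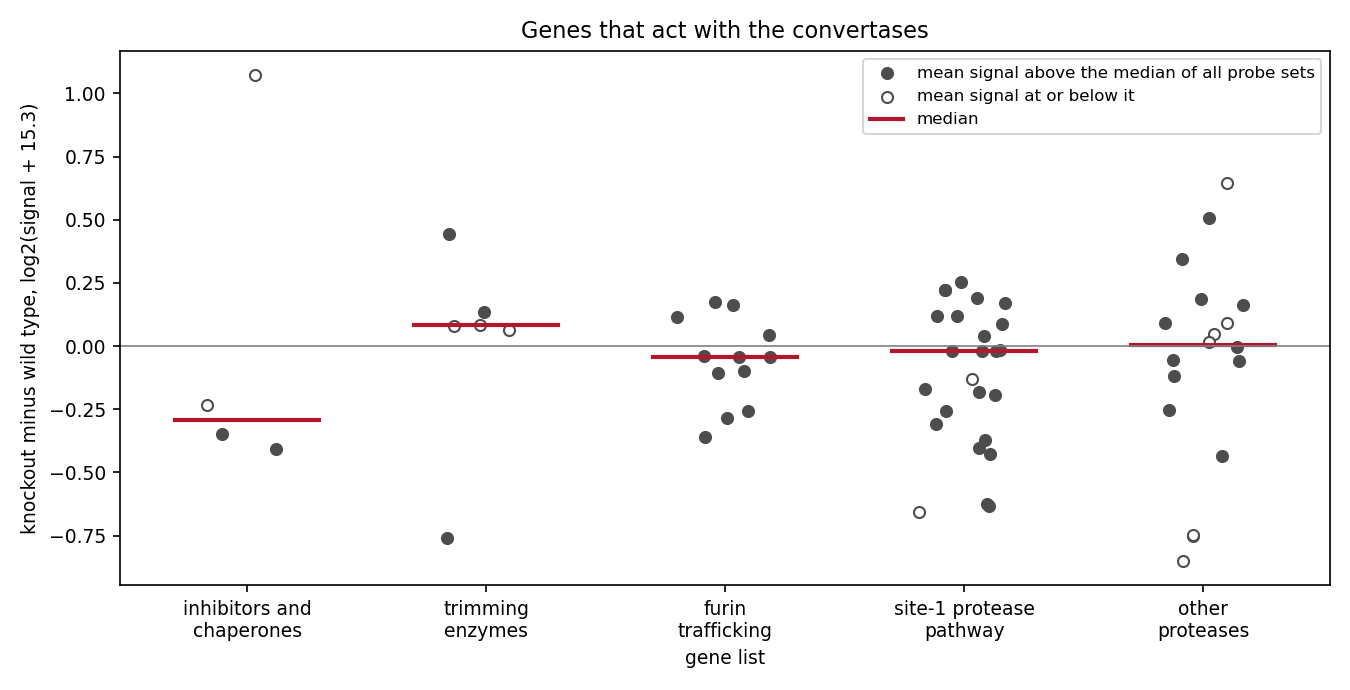
Knockout minus wild type on the log2(signal + 15.3) scale for each measured gene of 5 lists, filled where the mean signal is above 65.4 and open where it is not, with the list's median as a red line. Medians run from -0.29, over 4 genes, to 0.08, and the largest value, that of Serpinb8 at 1.07, is an open point.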

How the data were processed

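Affymetrix Mouse 430 2.0 arrays were hybridised with biotinylated cRNA from 5 micrograms of Trizol-extracted total RNA, per the labels' protocols. The deposited values are intensities, MAS5 signals with 1 linear value per probe set, per the submitters' processing notes. Its version is not given in the sources used here. With 2% of values trimmed at each end, all arrays share a mean of 500.003, which shows a common scaling. Of 45101 probe sets, 64 controls were left out. Of the rest, 34945 carry 1 symbol, 932 several and 9160 none in the platform annotation. The symbols of 34741 were looked up by Entrez ID in RefSeq (GRCm38.p6).

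Signals were transformed as log2(signal + 15.3), the 25% quantile of all non-control values, without a filter, so that dim members remain. All 45037 probe sets were fitted with limma 3.58.1 in R 4.3.3 (lmFit, eBayes, two-sided, Benjamini-Hochberg over all). The fit has no block and 2 residual degrees of freedom, 1 with the array number as a block. With the variance borrowed from all probe sets, the total degrees of freedom were 5.07 without the block and 3.80 with it. The labels state no shared animal or day for equal numbers. Across all probe sets, which are no independent replicates, the deviation of an array from its group mean correlated at 0.55 with that of the array of the same number in the other group. The fits were also run on simulated arrays, with known changes planted only in probe sets above the median. That run does not cover the dim members, and its outcome is not reported here. The number of arrays limits the precision.

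Members and lists were chosen with earlier results of these data known. All member probe sets were named. For each list the rule named genes called in either fit and up to 3 with the largest difference among those above the median signal with the same sign in both pairs. For Furin and Pcsk7 it named the 3 genes with the smallest Euclidean distance. A gene is represented by its brightest probe set. Alternatives covered the pseudocount, filter, normalization, prior, block, threshold, leaving out each array and averaging the probe sets of a gene. Promoter windows come from RefSeq; no genome or protein table was used here.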

Additional observations from a re-analysis of the deposited data

How the results depend on the processing

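No convertase probe set was called under the 15 alternatives that give a test. Over all probe sets the count of calls was 0 in the fit as reported and with the array number as a replicate block, 96 with a trended prior added to that block, and 1 with the block and the filter at the median. It was 0 at an adjusted p of 0.10 and 0 with any 1 array left out. The block leaves each difference as it is and changed no other call. The pair numbers are not tied to shared animals in the labels. With a gene's probe sets averaged, Mbtps1 was at 0.0042 (-0.09 for the brightest) and Cpd at 0.051 (-0.76 for the brightest). These sign changes follow from probe sets of 1 gene that disagree. Other pseudocounts, normalizations and priors turned no sign among the 13 convertase probe sets and the 13 named partner genes, but the pseudocount moved every dim convertase value by over 1.5 times. With a pseudocount of 1 and of 66.6, the median of all values, Pcsk1 was at 0.59 and 0.26, Pcsk6 at -0.27 and -0.083, and the Pcsk5 probe sets at 0.70 and 0.23 for the brightest, 0.33 and 0.12 for 1438248_at, 0.51 and 0.063 for 1424605_at, -0.74 and -0.071 for 1437339_s_at and -0.83 and -0.083 for 1451406_a_at. Cpd was at -0.90 and -0.49. The filters dropped dim probe sets, which then have no value. Leaving out an array compares groups of unequal array number and turned the sign of many differences, none of them called. Pcsk1, from 0.088 to 0.83, and the brightest Pcsk5 probe set, from 0.32 to 0.63, kept theirs. Among other convertases the range was for Furin from -0.055 to 0.27, Pcsk4 from -0.76 to 0.67, 1438248_at of Pcsk5 from -0.28 to 0.75, 1424605_at of Pcsk5 from -0.080 to 0.48, 1437339_s_at of Pcsk5 from -0.49 to 0.011, 1451406_a_at of Pcsk5 from -0.58 to 0.029, Pcsk6 from -0.71 to 0.34, Pcsk7 from -0.032 to 0.34, 1448240_at of Mbtps1 from -0.28 to 0.094, 1431385_a_at of Mbtps1 from -0.35 to 0.67 and 1431386_s_at of Mbtps1 from -0.78 to 0.67. Among partner genes it was for Scg5 from -1.08 to 0.38, Pam from -0.12 to 1.01, Ap1g1 from -0.80 to 0.23, Mbtps2 from -1.05 to 0.24, Ece1 from -0.14 to 1.16 and Adam9 from -0.75 to 0.24. Without a change of sign, Idi1 ran from -1.08 to -0.17, Srebf2 from -0.97 to -0.30, Flna from -0.47 to -0.044 and Ap1b1 from 0.047 to 0.30. Signal over background cannot be stated, as the table has no detection calls.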

Other observations

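The hybridisation controls include Cre itself, since a transcript of the phage cre gene is added to every sample. Cells that express a Cre transgene could add to this signal. Relative to the mean of the BioB, BioC and BioDn controls, the cre control was at 12.2 and 10.3 on knockout arrays 1 and 2, against 11.3 and 10.9 on wild-type arrays 1 and 2. The difference was 0.10 on the log2 scale in pair 1 and -0.08 in pair 2, so the pairs pointed in opposite directions. The added transcript gave signals between 15366 and 101660, and a contribution from the cells could not be seen at that level. These values thus check neither group label.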
